A study of Mus musculus with 2 samples.

Results

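CA1 glutamatergic neurons are the pyramidal output cells of the hippocampal CA1 field. The cells described here are those that the deposited cell table names Neu_CA1_1, Neu_CA1_3, Neu_CA1_4 or Neu_CA1_5, that is, all CA1 clusters but Neu_CA1_2. They number 715 of the 1063 CA1 cells and of the 8477 cells in all, with 349 cells in the WT library and 366 in the L151 library. Both libraries came from the ventral hippocampus (vHPC) of male mice aged 11 to 12 weeks on a mixed C57BL/6J x C57BL/6N background. The WT mouse carried ADCY2-V151, the valine form of adenylyl cyclase 2, the membrane enzyme that makes the second messenger cAMP. The L151 mouse was homozygous for ADCY2-L151, the valine to leucine substitution made by CRISPR/Cas9 in a line established from a single founder. Each genotype is represented by 1 library, since the study excluded 1 sample of each. No spread between mice can therefore be given, the genotypes were not tested against each other, and genotype and dissection cannot be told apart.

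Pyramidal neurons of CA1 receive their main excitatory input from CA3 through the Schaffer collaterals and carry the output of the hippocampus. In the ventral part they reach the amygdala, hypothalamus, nucleus accumbens and prefrontal cortex, targets tied to emotional behavior. The cell type is commonly recognised by Wfs1, which encodes the endoplasmic reticulum protein wolframin, by the POU-domain transcription factor gene Pou3f1 and by Slc17a7, which encodes the vesicular glutamate transporter VGLUT1. Counts per gene were not analysed here, so the deposited name was not checked against these markers. What the table gives for each cell is its number of unique molecular identifiers (UMIs, one per captured RNA molecule), how many genes those UMIs came from, the percent of its UMIs from mitochondrial genes, which encode subunits of the respiratory chain, and a doublet score. A neuron with its cytoplasm intact usually holds many mitochondrial transcripts, whereas a nucleus holds few.

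The 4 clusters together held 1916962 UMIs in WT and 1950932 in L151, which is 8.69% of the 22049587 UMIs of the WT library and 8.76% of the 22276085 UMIs of the L151 library. They held 15.7% of all mitochondrial UMIs in WT and 15.5% in L151. The libraries shared 3 cell barcodes over all cells, and 1 cell of the 4 clusters carried a barcode that was also present in the other library.

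The 4 CA1 clusters differed most in depth. Neu_CA1_5 held the deepest cells, followed by Neu_CA1_1, Neu_CA1_3 and Neu_CA1_4, and this order of median UMIs was the same in both libraries. In WT the median was 9270 UMIs per cell in Neu_CA1_5 (quartiles 7499.5 and 10993, n = 31 cells), 5149 in Neu_CA1_1 (3889.5 and 6841.75, n = 250), 3818 in Neu_CA1_3 (2149.5 and 6324, n = 43) and 1459 in Neu_CA1_4 (1279 and 1742, n = 25). The corresponding L151 medians were 9006 (7564.5 and 11599, n = 43), 5316 (4128 and 7411, n = 215), 2483.5 (1766.75 and 5577, n = 68) and 1243.5 (992.25 and 1534.5, n = 40). Neu_CA1_5 thus had 6.35 times the median UMIs of Neu_CA1_4 in WT and 7.24 times in L151. The clusters were made by the authors from the expression of these same cells, so differences between them are descriptions and were not tested.

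Neu_CA1_4 and Neu_CA1_5 barely met on the depth axis. In Neu_CA1_4 all but 1 of the 25 WT cells and all 40 L151 cells had under 2500 UMIs, and the exception had 3556. In Neu_CA1_5 all 31 WT cells and 42 of 43 L151 cells had over 5000. The remaining L151 cell had 1206 UMIs, 753 genes and a doublet score of 0, which places it among the values of Neu_CA1_4. Ranked by median UMIs among the 33 clusters of the table, Neu_CA1_5 was number 5 from the top in WT and number 4 in L151, while Neu_CA1_4 was number 28 in WT and number 27 in L151. Neu_CA1_1 was number 15 in both.

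Gene numbers followed the same order. Median genes per cell were 3238 in WT and 3244 in L151 for Neu_CA1_5, 2157.5 and 2308 for Neu_CA1_1, 1747 and 1397 for Neu_CA1_3, and 959 and 813 for Neu_CA1_4. The authors kept cells with 320 to 5000 genes. At the upper end, 5 of 31 WT and 8 of 43 L151 cells of Neu_CA1_5 had over 4000 genes, and the highest value among the 4 clusters was 4649 genes, in a WT cell of Neu_CA1_3. At the lower end, 15 of 25 WT cells of Neu_CA1_4 (exact binomial 95% interval of the share 38.7 to 78.9%) and 30 of 40 L151 cells (58.8 to 87.3%) had fewer than 1000 genes. All intervals given here cover counting error only. No cell of either library exceeded 14989 UMIs, a value reached in WT Neu_CA1_5, and 7 WT and 8 L151 cells of that cluster had over 12000. The highest value over all cells of the L151 library was nearly the same, 14988. The paper's methods state no limit on UMIs, so whether the deepest cells were cut off cannot be told.

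**Figure D1:**
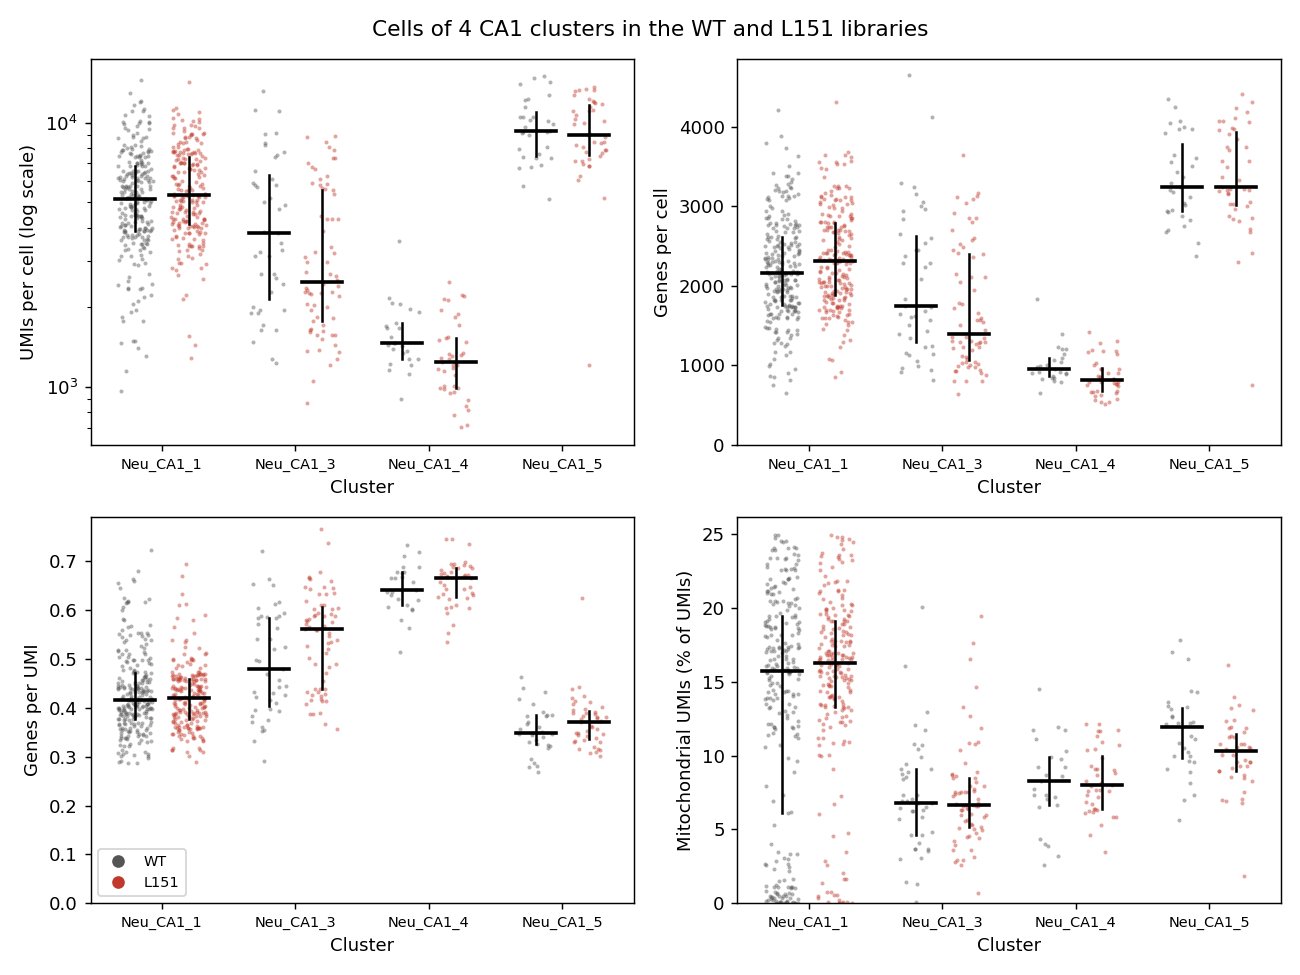
UMIs per cell (log scale), genes per cell, genes per UMI and mitochondrial percent for the cells of 4 CA1 clusters, with WT in grey and L151 in red, a point per cell, a wide bar at the median and a thin line between the quartiles. Neu_CA1_5 is deepest and Neu_CA1_4 shallowest in both libraries, and Neu_CA1_1 has a separate group of points near 0% mitochondrial content.

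Genes per UMI, a measure of how many different genes a given number of molecules represents, ran opposite to depth. The WT medians were 0.349 in Neu_CA1_5, 0.416 in Neu_CA1_1, 0.480 in Neu_CA1_3 and 0.642 in Neu_CA1_4, and the L151 medians were 0.371, 0.420, 0.561 and 0.666. Within single clusters the measure fell with UMIs in every library, with Spearman's rho across cells between -0.975 in WT Neu_CA1_3 (n = 43 cells) and -0.818 in WT Neu_CA1_4 (n = 25). UMIs are the denominator of the measure, so part of this relation is built in, and cells of 1 library are not independent replicates.

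To set clusters side by side at like depth, the 715 cells were divided into 4 depth bins at the quartiles of their UMIs, 3278, 5074 and 7348.5. From 5074 to 7348.5 UMIs, the median genes per UMI was 0.399 in WT and 0.409 in L151 for Neu_CA1_1 (78 and 65 cells), 0.422 and 0.429 for Neu_CA1_3 (7 and 13 cells) and 0.413 in both for Neu_CA1_5 (6 and 9 cells). Over all depths the WT medians of these 3 clusters had run from 0.349 to 0.480, and in this bin they ran from 0.399 to 0.422. Neu_CA1_4 had no cells in it. In the lowest bin, Neu_CA1_1 had 0.574 in WT and 0.559 in L151, Neu_CA1_3 had 0.588 and 0.593, and Neu_CA1_4 had 0.650 and 0.666. The bins are wide, and the median UMIs in the lowest were 2345.5 and 2814.5 for Neu_CA1_1 against 1450.5 and 1243.5 for Neu_CA1_4.

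Mitochondrial content separated the clusters in another order. Neu_CA1_1 had the highest median, 15.7% in WT and 16.3% in L151, followed by Neu_CA1_5 with 12.0% and 10.3%, Neu_CA1_4 with 8.28% and 7.99%, and Neu_CA1_3 with 6.82% and 6.66%. Among the 33 clusters of the table, Neu_CA1_1 was number 4 from the top in both libraries. The order of these medians was not that of depth: the deepest cluster ranked below Neu_CA1_1, and the shallowest ranked above Neu_CA1_3. At like depth, from 5074 to 7348.5 UMIs, the medians were 15.4% in WT and 16.2% in L151 for Neu_CA1_1, 10.6% and 10.5% for Neu_CA1_5, and 5.85% and 7.30% for Neu_CA1_3. Up to 3278 UMIs the order turned over, with 0.817% in WT and 2.71% in L151 for Neu_CA1_1, 7.35% and 6.58% for Neu_CA1_3, and 8.47% and 7.99% for Neu_CA1_4. Across the cells of Neu_CA1_1, Spearman's rho of UMIs and mitochondrial percent was 0.362 in WT and 0.244 in L151, the highest of the 4 clusters. Across those of Neu_CA1_3, Neu_CA1_4 and Neu_CA1_5 it lay between -0.144 and 0.181. UMIs here include the mitochondrial ones, so part of this relation is built in. Counting only UMIs from other genes, rho in Neu_CA1_1 was 0.182 in WT and 0.0857 in L151. In the other 3 clusters it then lay between -0.210 and 0.0277.

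The authors removed droplets with over 25% mitochondrial content, and among the 4 clusters this limit lay close to the cells of Neu_CA1_1 only. In that cluster 57 of 250 WT cells (22.8%, 17.7 to 28.5%) and 38 of 215 L151 cells (17.7%, 12.8 to 23.4%) had 20% or more. In the other 3 clusters 1 cell did, a WT cell of Neu_CA1_3 with 20.1%. Outside CA1, 26.7% of WT and 17.1% of L151 cells of Neu_DG_1 had 20% or more, as did 58.8% and 62.0% of Neu_CA3_2. In Neu_CA1_2, Neu_CA3_1 and Neu_DG_2 the share was at most 3.67%. How many CA1 cells were removed at this limit was not analysed here.

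Neu_CA1_1 was not uniform in mitochondrial content. Its cells fell into a large group above 10% and a smaller group below 5%, with few cells between: 9 of 250 in WT and 4 of 215 in L151 had 5 to 10%. The group below 5% held 61 WT cells (24.4%, 19.2 to 30.2%) and 23 L151 cells (10.7%, 6.90 to 15.6%). The L151 share was 0.438 times the WT share, with a counting interval of 0.259 to 0.719. Of these, 48 WT and 17 L151 cells were below 2%. The limit of 5% was placed in the gap after the values were seen. With limits of 2% and 10% the ratio was 0.412 and 0.449.

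**Figure D2:**
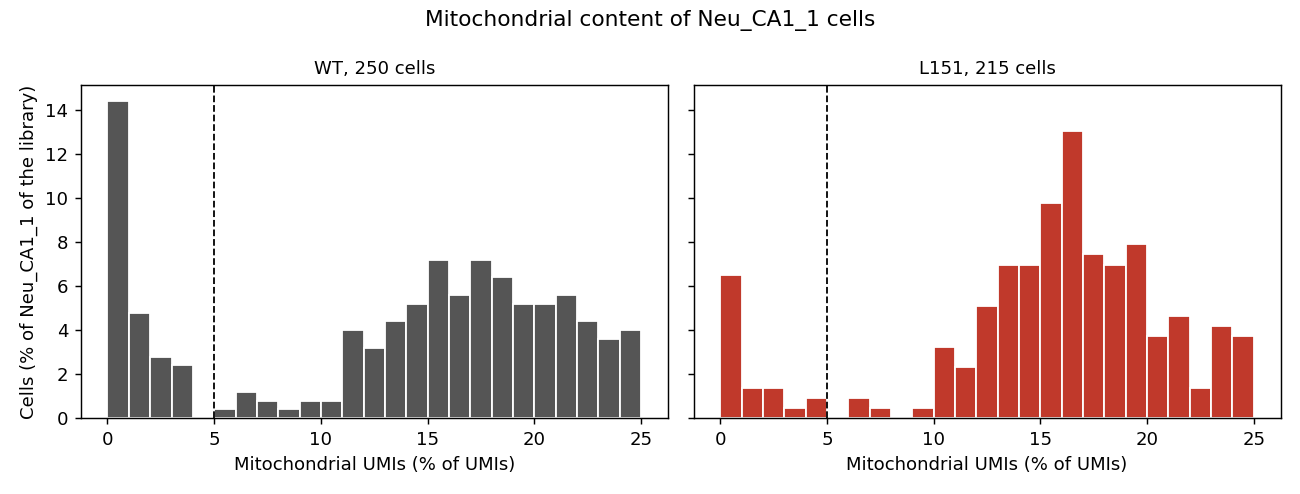
Mitochondrial content of Neu_CA1_1 cells as percent of their UMIs, with the height of each bar as percent of the cluster's cells in that library (WT left, 250 cells, L151 right, 215 cells) and a dashed line at 5%. Cells below it make up 24.4% in WT and 10.7% in L151, and the stretch from 5 to 10% is nearly empty in both.

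The low-mitochondrial cells of Neu_CA1_1 were also shallower. Their median was 3765 UMIs and 1976 genes in WT and 3405 UMIs and 1738 genes in L151, compared to 5678 UMIs and 2235 genes in WT and 5577 UMIs and 2348 genes in L151 for the other cells of the cluster. The gap in depth was also present without mitochondrial UMIs. Counting only UMIs from other genes, the low-mitochondrial cells had a median of 3741 in WT and 3397 in L151, and the other cells had 4757 and 4670.5. Their median mitochondrial content was 0.622% in WT and 0.570% in L151. Of the 61 WT cells 57 had at least 1000 genes, as did 21 of the 23 L151 cells.

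With these cells set aside, the median mitochondrial content of Neu_CA1_1 was 17.3% in WT and 16.7% in L151. The L151 median was the higher value with all cells and the lower value without them. The lower quartile showed the uneven mixture most clearly, at 6.10% in WT and 13.3% in L151, while the upper quartiles were 19.4% and 19.1%. The low-mitochondrial cells made up more of the cluster at low depth. In the lowest depth bin, up to 3278 UMIs, they were 23 of 34 WT and 10 of 18 L151 cells. From 3278 to 5074 UMIs they were 22 of 87 and 10 of 78. From 5074 to 7348.5 UMIs they were 13 of 78 and 3 of 65, and above 7348.5 UMIs 3 of 51 and 0 of 54. In Neu_CA1_4, whose cells are all but 1 in that lowest bin, 5 of 25 WT and 2 of 40 L151 cells were below 5% and none was below 2%, at medians of 8.28% and 7.99%.

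In Neu_CA1_2, the CA1 cluster left out here, 60 of 82 WT cells (73.2%) and 216 of 266 L151 cells (81.2%) were below 5%, with median mitochondrial contents of 0.513% and 0.253% among those cells. These are near the values of the low-mitochondrial cells of Neu_CA1_1, but at a median of 597.5 UMIs in WT and 500 in L151 the cells were far shallower. Among other principal neurons, Neu_CA3_2 had 6 of 34 WT (17.6%) and 2 of 71 L151 cells (2.82%) below 5%, a ratio of 0.160 (0.0158 to 0.893). Neu_CA3_1 had 12.7% in WT and 12.6% in L151, and Neu_DG_1 had 2.06% and 1.24%. Neu_DG_2 had 62 of 104 WT cells (59.6%) and 70 of 115 L151 cells (60.9%), so a high share below 5% was also present outside CA1. Only 6 of these WT and 7 of these L151 cells were below 2%. The median mitochondrial content of Neu_DG_2 was 4.23% in WT and 4.18% in L151, so the 5% limit ran through the middle of its cells. Within the 4 clusters, Neu_CA1_3 had 13 of 43 WT cells (30.2%) and 15 of 68 L151 cells (22.1%) below 5%. Of its cells 3 in WT and 1 in L151 were below 2%. Neu_CA1_5 had 0 of 31 (exact upper limit 11.2%) and 1 of 43 below 5%. The L151 share below 5% was the lower one in Neu_CA1_1, Neu_CA1_3, Neu_CA1_4, Neu_CA3_2 and Neu_DG_1, and marginally so in Neu_CA3_1. Of these, Neu_CA1_1 and Neu_CA3_2 had a counting interval of the ratio below 1, while those of Neu_CA1_3 (0.324 to 1.67), Neu_CA1_4 (0.0238 to 1.53) and Neu_DG_1 (0.161 to 1.93) included 1. The ratio was 1.11 (0.830 to 1.50) in Neu_CA1_2, 0.992 (0.596 to 1.69) in Neu_CA3_1 and 1.02 (0.715 to 1.46) in Neu_DG_2. Whether the ratio differs between clusters was not tested.

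**Figure D3:**
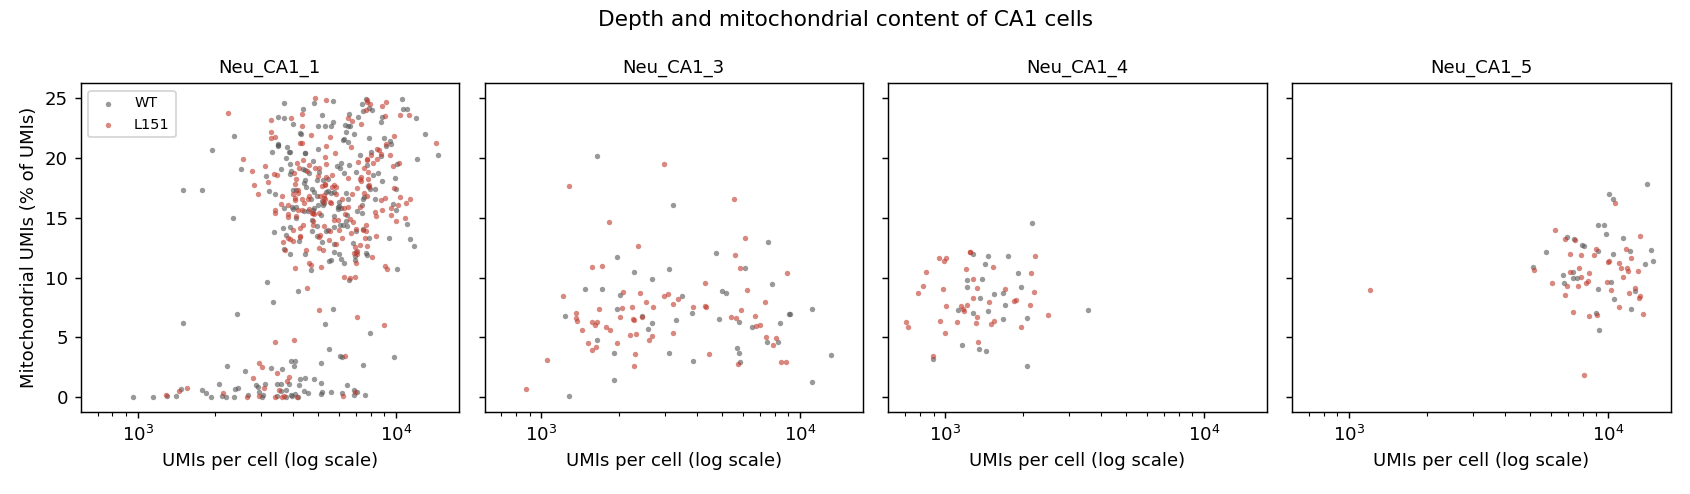
Mitochondrial percent against UMIs per cell (log scale) for the 4 CA1 clusters, with WT cells in grey and L151 cells in red. In Neu_CA1_1 the low-mitochondrial cells form a band at the bottom that reaches from 963 to 9851 UMIs in WT and from 1285 to 6925 in L151. Below 2% lie 3 WT and 1 L151 cells of Neu_CA1_3, 1 L151 cell of Neu_CA1_5 and none of Neu_CA1_4. In Neu_CA1_5, 1 L151 cell lies at 1206 UMIs, apart from the next at 5191.

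Between the libraries, Neu_CA1_1 and Neu_CA1_5 differed little in depth. The L151/WT ratio of median UMIs was 1.03 for Neu_CA1_1 and 0.972 for Neu_CA1_5, and that of median genes was 1.07 for Neu_CA1_1, with nearly equal medians of 3238 and 3244 for Neu_CA1_5. Neu_CA1_3 had fewer UMIs in L151, with a ratio of 0.650, and fewer genes, with a ratio of 0.800. Neu_CA1_4 had a ratio of 0.852 in UMIs and 0.848 in genes. Over the 4 clusters together the median was 5130 UMIs in WT and 5033 in L151, a ratio of 0.981, so the gap within Neu_CA1_3 and Neu_CA1_4 does not appear in the total. Among the similar clusters the ratio of median UMIs was 0.820 for Neu_CA1_2, 0.764 for Neu_CA3_1, 1.11 for Neu_CA3_2, 1.07 for Neu_DG_1 and 1.06 for Neu_DG_2. The ratio in Neu_CA1_3 was thus the lowest of the 9 clusters set side by side. The quartiles of its WT and L151 cells overlapped widely, and the counting intervals of its medians (2671 to 5791 in WT and 2249 to 3236 in L151) overlapped too. Those of Neu_CA1_4 (1343 to 1698 in WT, 25 cells, and 1111 to 1342 in L151, 40 cells) only just failed to overlap.

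The gap in Neu_CA1_3 lay in how its cells were spread over depth. Cells with under 2500 UMIs numbered 34 of 68 in L151 and 13 of 43 in WT, and cells with over 5000 UMIs numbered 19 and 18. In the lowest depth bin were 63.2% of the L151 cells and 44.2% of the WT cells, a ratio of 1.43 (0.816 to 2.60), an interval that includes 1. In the highest bin were 8.82% and 23.3%, a ratio of 0.379 (0.113 to 1.15). Mitochondrial content did not differ in step, with a ratio of medians of 0.977, and genes per UMI was higher in L151 (ratio 1.17). Within the lowest bin genes per UMI was 0.588 in WT and 0.593 in L151. For Neu_CA1_5 the widest gap was in mitochondrial content, with quartiles of 8.97 and 11.5% in L151 and 9.81 and 13.2% in WT, which overlap, and a ratio of medians of 0.863.

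The clusters also took unequal parts of the CA1 cells. Of the cells in the 4 clusters, Neu_CA1_1 made up 71.6% in WT (66.6 to 76.3%) and 58.7% in L151 (53.5 to 63.8%), a ratio of 0.820 (0.680 to 0.988). Neu_CA1_3 made up 12.3% (9.06 to 16.2%) and 18.6% (14.7 to 22.9%), a ratio of 1.51 (1.01 to 2.26). Neu_CA1_4 had 7.16% and 10.9%, a ratio of 1.53 (0.903 to 2.62), and Neu_CA1_5 had 8.88% and 11.7%, a ratio of 1.32 (0.814 to 2.17). Since the shares sum to the whole, a smaller Neu_CA1_1 raises the other 3 together. Counted against all CA1 cells, Neu_CA1_2 included, the ratio fell to 0.586 for Neu_CA1_1 and lay between 0.946 and 1.09 for the other 3. Neu_CA1_2 held 82 of the 431 CA1 cells in WT and 266 of the 632 in L151. Counted against all cells of the library, the ratio was 0.789 for Neu_CA1_1, 1.45 for Neu_CA1_3, 1.47 for Neu_CA1_4 and 1.27 for Neu_CA1_5. Without the low-mitochondrial cells of all 4 clusters the ratio for Neu_CA1_1 was 0.844. With at least 1000 genes per cell, the ratio for Neu_CA1_4 went from 1.53 to 1, with 10 cells left in each library.

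**Figure D4:**
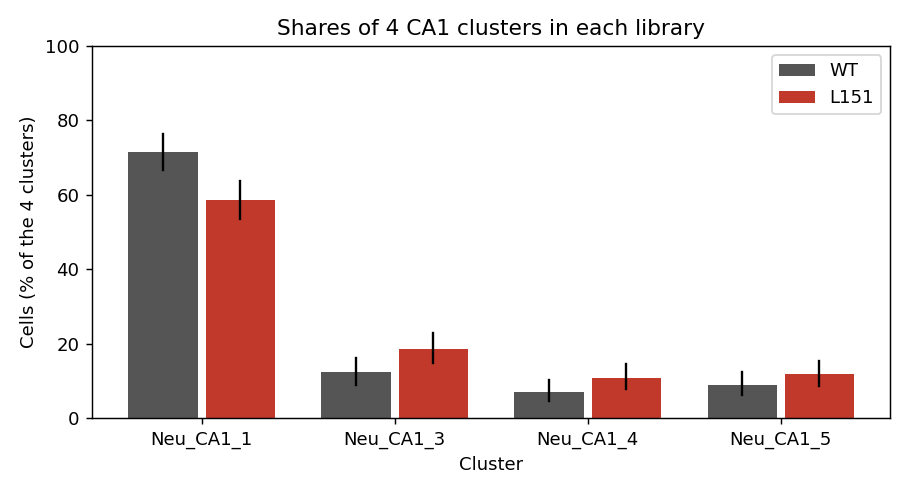
Share of the cells of the 4 CA1 clusters in each cluster, in percent of the 349 WT (grey) and 366 L151 (red) cells, with the exact binomial 95% interval as a line. Neu_CA1_1 has 71.6% in WT and 58.7% in L151, and the other 3 clusters have higher shares in L151.

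The deposited doublet score rates how far a cell resembles a simulated mixture of cells. Doublets had been removed by the authors before deposit, and no source used here states the scale, so scores are compared as differences. Over all 8477 cells the score ran from 0 to 2.98, with 26.5% of cells at exactly 0 and 50 cells at the highest value. It was tied to depth: all 884 cells with up to 1000 UMIs scored 0, against 1.15% of cells with over 10000.

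Neu_CA1_5 had the highest scores of the 4 clusters, with medians of 2.15 in WT (quartiles 2.06 and 2.27) and 2.22 in L151 (2.10 and 2.56). Neu_CA1_1 had medians of 1.29 (1.08 and 1.58) and 1.33 (1.17 and 1.53). The medians of Neu_CA1_3 and Neu_CA1_4 were 0 in both libraries, with different distributions. In Neu_CA1_4, 23 of 25 WT and 37 of 40 L151 cells scored 0, as did every cell of Neu_CA1_2. In Neu_CA1_3 the cells were split: 22 of 43 in WT and 37 of 68 in L151 scored 0, and all others scored at least 1.71.

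The cells of Neu_CA1_3 on either side of this split differed in depth. Those above 0 had medians of 6106 UMIs in WT and 4428 in L151, and those at 0 had 2149.5 and 1828. Mitochondrial content was alike on both sides, with medians between 6.55 and 7.08%. Among the cells above 0 the median score was 2.53 in WT and 2.43 in L151. The medians over all cells of Neu_CA1_1 and Neu_CA1_5, those at 0 included, were lower. For the cells of Neu_CA1_1 above 0 they were 1.33 and 1.35. At like depth, from 5074 to 7348.5 UMIs, the median score was 1.31 in WT and 1.32 in L151 for Neu_CA1_1, 2.22 and 2.24 for Neu_CA1_3, and 2.20 and 2.24 for Neu_CA1_5. Neu_CA1_1 was thus below Neu_CA1_3 in this bin, whereas over all depths its median was above that of Neu_CA1_3. Up to 3278 UMIs the median score was 0 in WT and 0.932 in L151 for Neu_CA1_1, and 0 in both libraries for Neu_CA1_3 and Neu_CA1_4. The depth of both sides was lower in L151, with the shares of cells on each side nearly equal in the libraries.

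In Neu_CA1_1 most zero scores were in cells of low mitochondrial content. Of its 30 WT cells at 0, 25 were below 5% mitochondrial content, as were 11 of 15 in L151. Of the low-mitochondrial cells 41.0% in WT and 47.8% in L151 scored 0, against 2.65% and 2.08% of the other cells of the cluster. Most low-mitochondrial cells thus scored above 0. Their median score was 1.39 in WT and 1.31 in L151, against 1.26 and 1.33 in the other cells. The low-mitochondrial cells are also the shallower ones, and the part of depth in their zero scores was not tested. Above the 95th percentile of the score over all cells, 2.38, were 13 of 43 WT (30.2%, 17.2 to 46.1%) and 16 of 68 L151 cells (23.5%, 14.1 to 35.4%) of Neu_CA1_3. In Neu_CA1_5 the share was 16.1% in WT (5.45 to 33.7%) and 32.6% in L151 (19.1 to 48.5%), and in Neu_CA1_1 it was 4.40% and 6.05%. The L151/WT ratio for Neu_CA1_5, 2.02, had a counting interval of 0.687 to 7.16 that includes 1.

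**Figure D5:**
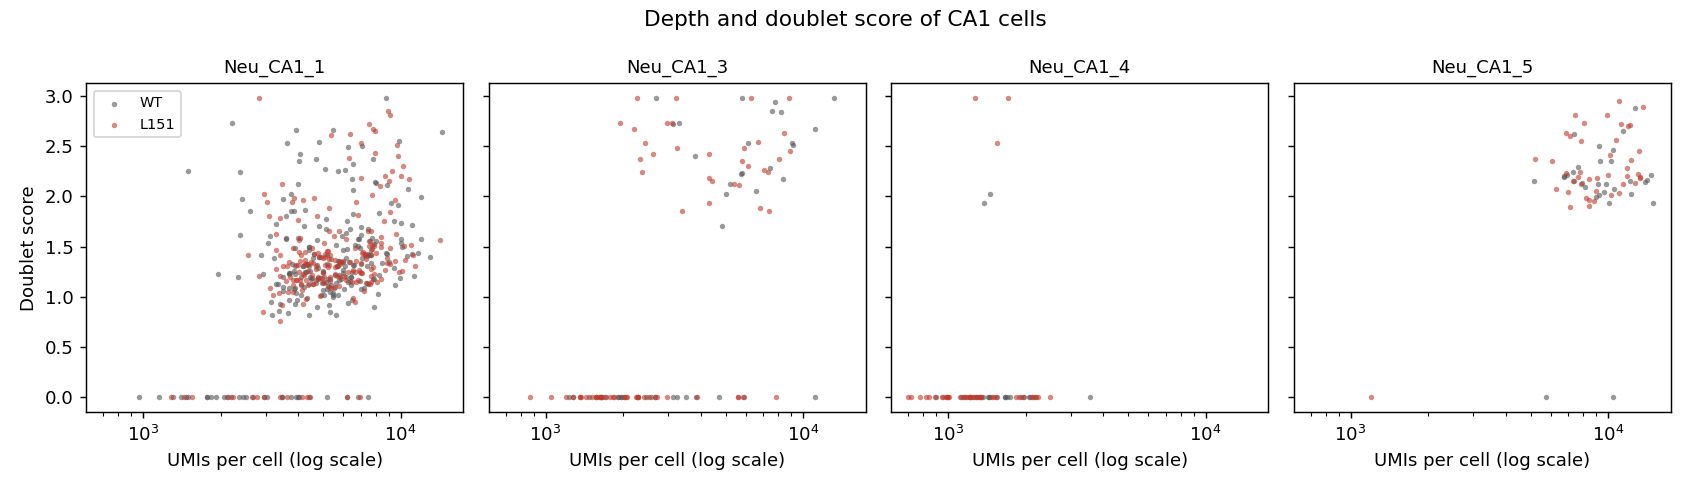
Doublet score against UMIs per cell (log scale) for the 4 CA1 clusters, with WT cells in grey and L151 cells in red. Cells of Neu_CA1_3 lie either at 0 or at 1.71 and above, nearly all cells of Neu_CA1_4 lie at 0, and most cells of Neu_CA1_1 lie in a band with a median of 1.29 in WT and 1.33 in L151.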

How the data were processed

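Single cells of the vHPC were captured by the study with the droplet-based 10x Genomics 3′ chemistry. Per the submitters' processing notes, the authors used Cell Ranger 3.0.2 on mm10 and Seurat 3.1.3. The deposited UMI and gene counts per cell are whole numbers and were not normalized by the authors. The deposited mitochondrial percent is the authors' share of mitochondrial UMIs per cell, and gave whole UMIs for all 8477 cells (within 1e-06). The deposited doublet score is the authors' value per cell, with no scale stated in the sources used here. The authors' filters on cells were 320 to 5000 genes and at most 25% mitochondrial content, and they also removed blood cells and, with scran, doublets. Cluster names were used as deposited. Groups follow the genotype labels, and 0 columns were left without a sample.

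Medians, quartiles and shares per cluster and library were computed with scipy 1.17.1, numpy 2.4.6 and pandas 2.3.3 under Python 3.11.15. Matplotlib 3.10.9 drew the figures. Shares have exact Clopper-Pearson 95% intervals, and medians order-statistic intervals, both tested on simulated data. For a ratio of shares, the L151 cells among all counted cells were treated as binomial, and the exact limits were converted to a ratio. With 1 library per genotype, no p-value was computed. The clusters and measures were chosen with earlier results of these data known. Only clusters and the marker genes of the cell type are named. Alternatives were at least 500 genes, at least 1000 genes, at least 1000 UMIs, at most 10% mitochondrial content, means, other denominators, 4 bins of UMIs, the ratio of log10 genes to log10 UMIs, pooled mitochondrial UMIs, and scores up to the 95th percentile. Leaving out cells under 5% mitochondrial content or with a doublet score of 0, and the limits of 2, 5 and 10% in Neu_CA1_1, were chosen after the data were seen.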

Additional observations from a re-analysis of the deposited data

How the results depend on the processing

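No paired analysis was possible because each genotype has 1 library, and no replicate could be left out. Of 233 alternative values for 30 results, 222 stayed within the counting interval of the main value. For a ratio of medians this interval combines the intervals of both medians and is wide. The limit of 500 genes removed no cell, since the lowest count in the 4 clusters was 517 genes, so its values repeat the main ones. The ratio of log10 genes to log10 UMIs was held against the interval of genes per UMI, a different measure. The 222 therefore include values that could not move. With at most 10% mitochondrial content, which removes most of Neu_CA1_1, the values over the 4 clusters became 0.737 for the L151/WT ratio of median UMIs, 0.841 for genes, 1.10 for genes per UMI and 1.88 for mitochondrial percent, and the difference in doublet score became -1.27. In Neu_CA1_1 the same limit gave 0.945 for genes, 1.33 for mitochondrial percent and 0.400 for its share among the 4 clusters, and with all CA1 cells as denominator that share ratio became 0.586. Where only cells with 1000 or more genes were kept, the ratio of median UMIs of Neu_CA1_4 turned from 0.852 to 1.05, with 10 cells left in each library. As a mean, the difference in doublet score of Neu_CA1_4 was 0.0537 in place of 0. The share of Neu_CA1_1 cells under 5% mitochondrial content kept an L151/WT ratio between 0.367 and 0.449 in every setting tried. All of these settings kept the deposited cluster and its own cells as denominator, so none moved its border with Neu_CA1_2. A further 15 alternatives had fewer than 10 cells in a library and gave no value. The number of cells limits Neu_CA1_4 most, with 25 in WT.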
